A study of Mus musculus with 11 samples.

Results

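The TGF-β ligand, its receptors, the SMAD proteins and their co-repressors were followed as 10 genes of a table of 32469 gene symbols: Tgfb1, Tgfbr1, Tgfbr2, Smad2, Smad3, Smad4, Smad7, Ski, Skil and Tgif1. The rule names them as components of the pathway itself and uses no measured value, although earlier results of these data were known when they were chosen, and all 10 had a row in the table. Bulk RNA-seq had been performed on T cells from subcutaneous Lewis lung carcinoma (LLC) tumors, a mouse lung cancer line, grown in both flanks of wild-type C57BL/6 mice. The 5 untreated mice received no antibody, and the 6 anti-LAG-3 mice received 200 µg of an antibody to LAG-3 (clone C9B7W), an inhibitory receptor of T cells, into the peritoneum on days 14 and 16 after inoculation. According to the study's methods the cells were sorted as precursor exhausted CD8 T cells, the self-renewing pool from which more differentiated exhausted cells arise, by a gate that included PD-1+, Ly108+ and TIM-3-. Both groups carried the same tumor and no engineered allele, and a single transplanted line in a single strain is the limit of the model.

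TGF-β is secreted in a latent form and acts once it is released. The active ligand binds the type II receptor, encoded by Tgfbr2, which phosphorylates the type I receptor, encoded by Tgfbr1, and this in turn phosphorylates SMAD2 and SMAD3, which join SMAD4 and enter the nucleus. SMAD7 blocks the receptor step and is itself induced by the pathway, while SKI, SnoN (encoded by Skil) and TGIF1 hold SMAD target genes down. In T cells the pathway is known for restraining proliferation and effector function and for promoting tissue residence. Transcript levels do not measure ligand release or SMAD phosphorylation.

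No component passed the test of a difference between the groups. With edgeR's quasi-likelihood test across all genes, 6 of the 10 passed the filter on low counts; of these 4 were fitted higher and 2 lower with anti-LAG-3, and 0 of 6 had an adjusted p under 0.05, where 0% of all 6949 tested genes did. An unadjusted p under 0.05 was reached by 0 of 6 components and by 3.73% of all tested genes, and in 0 of 6 did the libraries of the groups fail to overlap, against 0.475% of all tested genes. Across the table the unadjusted count was 259 genes with the quasi-likelihood test, 307 with edgeR's likelihood ratio test and 163 with DESeq2, and neither of the latter called a gene after adjustment. The median log2 fold change of the 6 was 0.023, beside 0.0045 for all tested genes. Tgfbr1, Smad3, Smad4 and Ski were too low to be tested.

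The libraries held 313524 to 1901374 counts, so that 3 counts, the limit that a count of 0 allows, correspond to 1.65 to 10.1 CPM (counts relative to the library's total, scaled by edgeR's normalization factors). Intervals from counts cover counting error only, because amplified reads carried no molecular identifiers. The 6 libraries made with primer barcode 9 were the deepest, at 566144 counts or more, and both groups had 3 of them. A second index in the sample titles was shared by untreated replicates 2 and 3 and anti-LAG-3 replicate 10, and another by untreated replicates 4 and 5; its part in the results was not tested. In bulk RNA, fewer cells with a transcript and less transcript per cell cannot be told apart.

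Tgfb1, the only ligand of the set, had the widest spread of the tested components. Its level was 289.9, 145, 162, 99.9 and 109 CPM in untreated replicates 1 to 5. In anti-LAG-3 replicates 6 to 11 it was 214, 80.8, 250.1, 202, 105 and 209 CPM. High and low libraries were present in both groups, and the groups overlapped over most of their range. Untreated libraries averaged 161 ± 76.4 CPM (SD, n = 5), and anti-LAG-3 libraries 177 ± 67.7 CPM (SD, n = 6). The log2 fold change was 0.0068 with a standard error of 0.25 and a 95% interval from -0.50 to 0.51, so that folds from 0.708 to 1.42 were within it (edgeR quasi-likelihood test, adjusted p = 0.999). Untreated replicate 1, the highest library, carried much of the balance: without it the log2 fold change was 0.395 (unadjusted p = 0.105 in the same edgeR test). Within primer barcode 9 alone, mean log2 CPM differed by -0.18, and within primer barcode 8, which had 1 untreated library, it was 0.81.

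**Figure D1:**
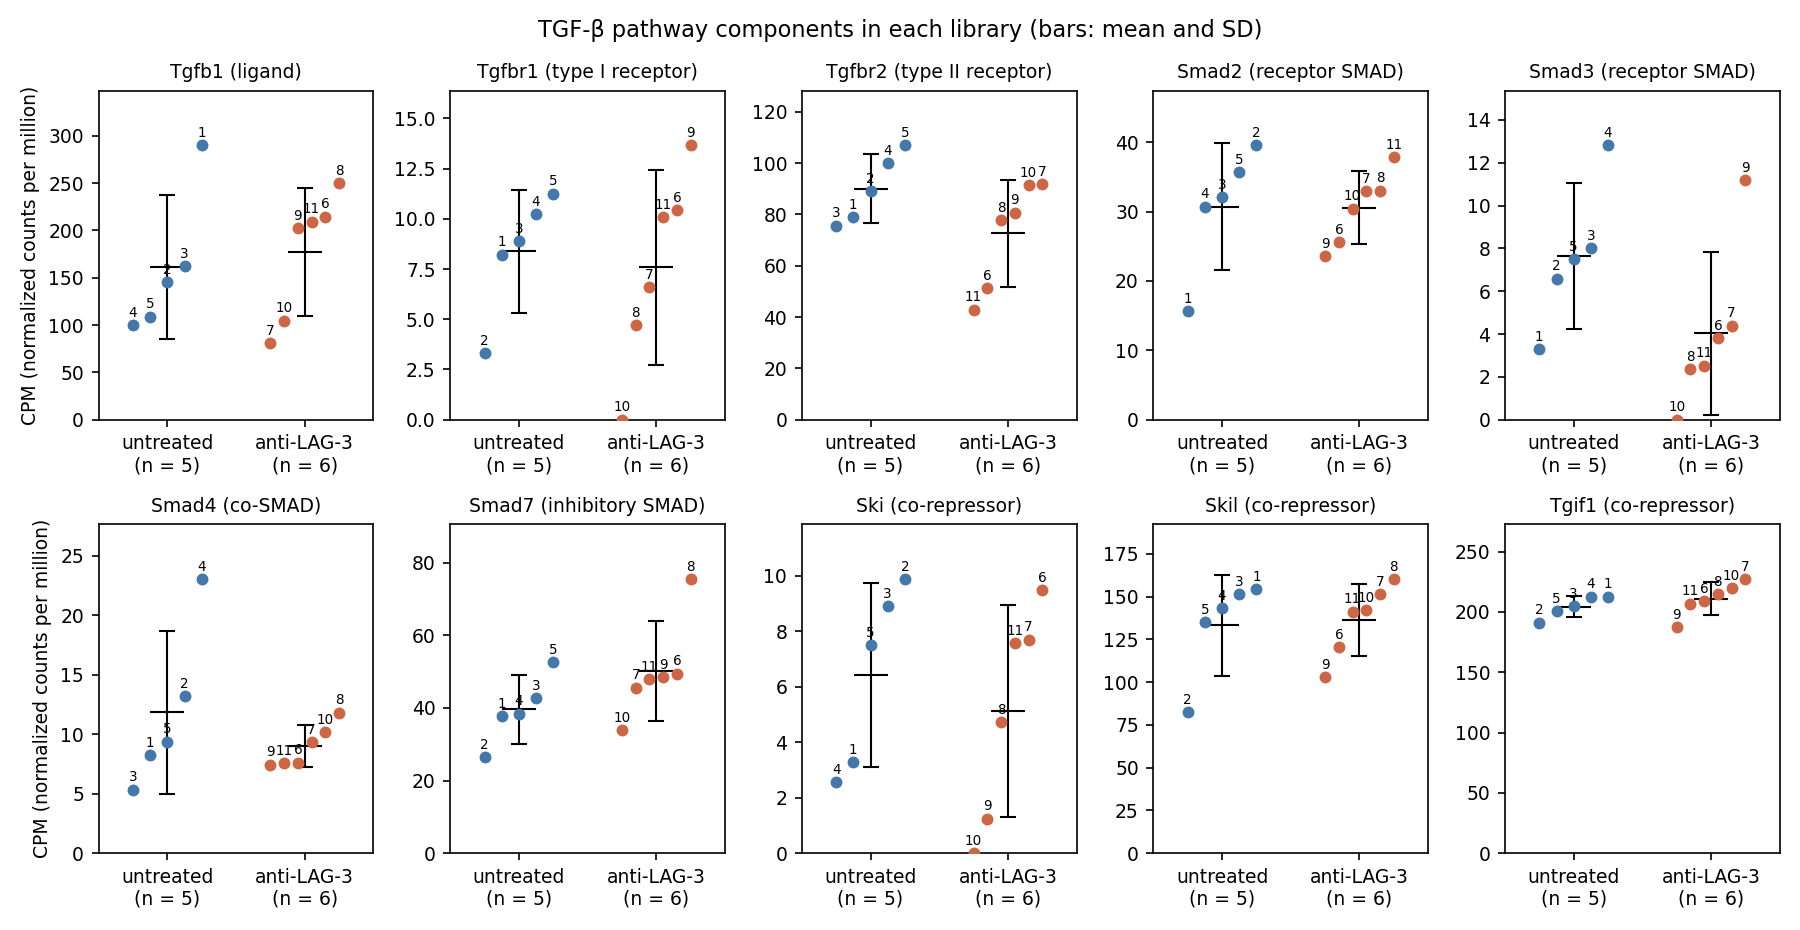
Each panel plots the CPM of one gene (vertical axis from 0, its own scale) in the 5 untreated libraries (blue) and the 6 anti-LAG-3 libraries (orange), numbered by replicate, with the mean and SD as black bars. The groups overlap in every panel; Tgfb1 runs from 80.8 to 289.9 CPM and Tgif1 only from 187 to 227 CPM.

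Tgfbr2, the ligand-binding receptor, had the largest decrease among the tested components over all 11 libraries, but the change did not pass the test. Within primer barcode 9 the ranking depended on the measure. In the edgeR fit, Tgfb1 (log2 fold change -0.285) and Skil (-0.22) had larger decreases than Tgfbr2 (-0.164). By the difference in mean log2 CPM, Tgfbr2 was at -0.24, Tgfb1 at -0.177 and Skil at -0.243. Tgfbr2 was measured at 78.8, 89.0, 75.6, 99.9 and 107 CPM in untreated replicates 1 to 5 and at 51.3, 91.7, 77.9, 80.7, 91.3 and 42.9 CPM in anti-LAG-3 replicates 6 to 11. Replicates 6 and 11 lay below every untreated library, and the other 4 anti-LAG-3 libraries lay within the untreated range. The log2 fold change was -0.25 with a standard error of 0.17 and a 95% interval from -0.60 to 0.10 (edgeR quasi-likelihood test, unadjusted p = 0.155, adjusted p = 0.999). It was -0.39 without anti-LAG-3 replicate 7, the deepest library, and -0.15 without replicate 6. Tgfbr1, the kinase that Tgfbr2 activates, had 71 counts over all libraries. It reached 3.30 to 11.3 CPM in untreated libraries and 0 to 13.7 CPM in anti-LAG-3 libraries, a pooled ratio of 0.96 with a counting interval of 0.586 to 1.59. Tgfbr2 exceeded Tgfbr1 in 11 of 11 libraries, with a pooled ratio of CPM per kilobase of 7.83 in untreated and 7.24 in anti-LAG-3 libraries.

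The promoter sequences of Tgfb1 and Tgfbr2 are shown because these are the components whose levels ran in opposite directions across libraries, as described further on. RefSeq windows were given for 6 of the 10 genes, and the bases directly before the start are printed, 5′ to 3′, with matches in capitals. The Tgfb1 window is chr7:25686752-25687001 on the plus strand (GRCm38.p6, GC content 75.2%), and the Tgfbr2 window is chr9:116175364-116175613 on the minus strand (GC content 58.4%).
Tgfb1: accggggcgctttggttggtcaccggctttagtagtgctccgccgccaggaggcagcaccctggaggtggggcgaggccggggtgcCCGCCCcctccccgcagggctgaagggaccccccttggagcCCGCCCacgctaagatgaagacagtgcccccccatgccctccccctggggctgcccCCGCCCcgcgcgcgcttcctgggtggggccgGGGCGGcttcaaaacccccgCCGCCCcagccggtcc
Tgfbr2: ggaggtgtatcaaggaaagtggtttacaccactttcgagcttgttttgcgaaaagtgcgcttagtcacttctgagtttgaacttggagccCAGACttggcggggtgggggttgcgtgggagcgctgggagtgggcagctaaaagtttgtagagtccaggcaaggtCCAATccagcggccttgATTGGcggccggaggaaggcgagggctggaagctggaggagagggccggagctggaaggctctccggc
A first search, on both strands, for the CAGA box (CAGACA), the SMAD palindrome (GTCTAGAC), the TGIF site (CTGTCA) and the AP-1 site (TGACTCA) matched neither window. The shorter SMAD core (CAGAC, contained in the CAGA box), the GC box (GGGCGG) and the CCAAT box (CCAAT) were added after that was seen, and the capitals mark these alone. The Tgfb1 window held 5 GC boxes, and 32.7% of all 32851 windows held at least 1. The Tgfbr2 window held 1 SMAD core and 2 CCAAT boxes, and at least 1 of each was held by 42.2% and 33.8% of windows. A match of this kind is a description of the letters and not a measured binding site.

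Smad2 and Smad3 encode the SMADs that the type I receptor phosphorylates. Smad2 stood at 15.6, 39.6, 32.0, 30.7 and 35.6 CPM in untreated replicates 1 to 5, and from 23.6 through a median of 31.7 to 37.8 CPM in the anti-LAG-3 libraries. Untreated replicate 1, the library with the most Tgfb1, had the least Smad2. The log2 fold change of Smad2 was 0.074 with a standard error of 0.24 (95% interval -0.41 to 0.56; edgeR quasi-likelihood test, adjusted p = 0.999), and without untreated replicate 1 it turned to -0.18. Smad3 had 47 counts in all, at 3.29 to 12.8 CPM in untreated and 0 to 11.2 CPM in anti-LAG-3 libraries, with a pooled ratio of 0.713 and a counting interval of 0.385 to 1.32. Smad2 was above Smad3 in 11 of 11 libraries, by a pooled ratio of CPM per kilobase of 2.58 in untreated and 3.95 in anti-LAG-3 libraries. Smad4, the shared partner of the phosphorylated SMADs, had 76 counts, at 5.34 to 23.1 CPM in untreated and 7.45 to 11.8 CPM in anti-LAG-3 libraries, with a pooled ratio of 0.919 and a counting interval of 0.571 to 1.49. An antisense gene overlaps the span of Smad4, but 0% of the stretches of 50 bases in Smad4 transcripts occur in those of another gene on either strand.

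Smad7, the inhibitory SMAD, had the largest increase among the tested components over all 11 libraries, and it did not pass the test either. Without untreated replicate 1 the log2 fold change was 0.257 for Smad7 and 0.395 for Tgfb1. Untreated replicates 1 to 5 had 37.8, 26.4, 42.7, 38.4 and 52.5 CPM, and the anti-LAG-3 libraries ranged from 33.8 through a median of 48.2 to 75.5 CPM. Only replicate 8 of the anti-LAG-3 group was above every untreated library. The log2 fold change was 0.29 with a standard error of 0.19, and the 95% interval of the fold ran from 0.935 to 1.61 (edgeR quasi-likelihood test, unadjusted p = 0.134, adjusted p = 0.999). Without anti-LAG-3 replicate 8 the log2 fold change was 0.18, and within primer barcode 9 the difference in mean log2 CPM was 0.11.

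Tgif1 was the steadiest of the tested components. This co-repressor, a homeodomain protein that recruits histone deacetylases to SMADs, was measured at 213, 191, 205, 213 and 201 CPM in untreated replicates 1 to 5 and from 187 through a median of 212 to 227 CPM with anti-LAG-3. The highest library was 1.21 times the lowest, and the log2 fold change was 0.039 with a standard error of 0.094 (95% interval -0.15 to 0.23; edgeR quasi-likelihood test, adjusted p = 0.999). Its coefficient of variation over the 11 libraries, 5.64%, was below the 9.12% that counting error alone gives at these depths. Skil stood at 154, 82.4, 151, 143 and 135 CPM in the untreated replicates and from 103 through a median of 142 to 160.4 CPM with anti-LAG-3, a log2 fold change of -0.036 with a standard error of 0.14 (95% interval -0.32 to 0.25; edgeR quasi-likelihood test, adjusted p = 0.999). Untreated replicate 2, 1 of the shallow libraries and the only one with primer barcode 10, was the lowest untreated library for both genes. For Smad2 (mean 30.7 CPM in untreated and 30.6 CPM in anti-LAG-3 libraries, fitted higher) and Skil (133 and 136 CPM, fitted lower) the fitted direction was opposite to that of the group means. Ski, the paralog of Skil, had 52 counts in all, a pooled ratio of 1.01 and a counting interval of 0.566 to 1.85. Skil exceeded Ski in 11 of 11 libraries, and its pooled CPM per kilobase was 13.3 times that of Ski in untreated and 12.5 times in anti-LAG-3 libraries.

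For the 4 components under the filter, a fit without a filter, over 24024 genes, gave log2 fold changes of -0.043 ± 0.438 (SE) for Tgfbr1, -0.52 ± 0.525 for Smad3, -0.18 ± 0.425 for Smad4 and -0.034 ± 0.528 for Ski. The 95% intervals were wide, from -0.90 to 0.82 for Tgfbr1 and from -1.55 to 0.51 for Smad3, and differences within them were not detectable at this depth.

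**Figure D2:**
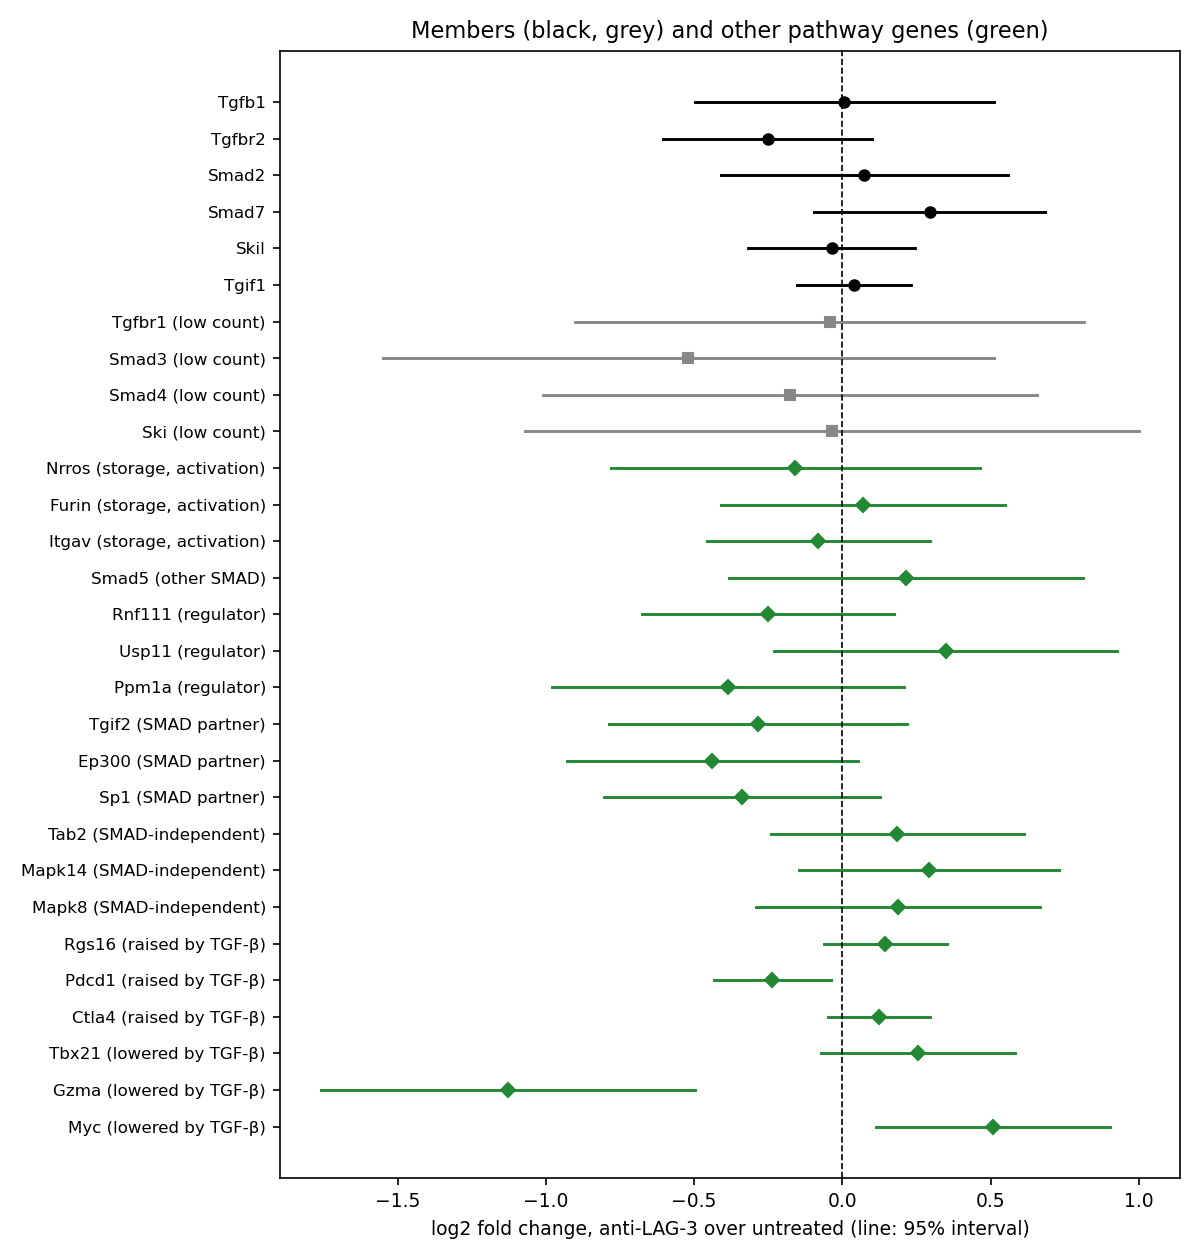
The log2 fold change of anti-LAG-3 over untreated (horizontal axis) is drawn with its 95% interval for the 6 tested components (black circles), the 4 components of low count from the fit without a filter (grey squares) and the named genes of the other pathway lists (green diamonds). All 10 component intervals cross 0, and those of Pdcd1, Gzma and Myc do not, before any adjustment for the number of genes.

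Between genes, levels were compared as CPM per kilobase of merged exon length, which assumes that reads scale with exon length. That was not tested, and a count table does not show which part of a transcript was read. Before division by length the pooled ratios were 4.08 (counting interval 2.59 to 6.67) in untreated and 6.26 (4.01 to 10.2) in anti-LAG-3 libraries for Smad2 over Smad3. They were 23.2 (15.2 to 37.4) and 21.7 (15.1 to 32.5) for Skil over Ski. For Tgfbr2 over Tgfbr1 they were 9.81 (6.77 to 14.7) and 9.07 (6.54 to 12.9), so the order within each pair was the same on both scales. Tgif1 was highest at 37.0 ± 2.09 (SD, n = 11) and Tgfb1 followed at 33.7 ± 13.6. Skil at 13.9 ± 2.47, Smad7 at 10.0 ± 2.80 and Tgfbr2 at 9.84 ± 2.35 formed the middle. Smad2 at 3.49 ± 0.781 and Smad4 at 2.77 ± 1.28 came next, and Tgfbr1 at 1.22 ± 0.608, Ski at 1.03 ± 0.628 and Smad3 at 1.02 ± 0.710 were lowest. Neighbours in this order were not always separate. Tgif1 exceeded Tgfb1 in 6 of 11 libraries, Smad7 exceeded Tgfbr2 in 5 of 11, Tgfbr1 exceeded Ski in 5 of 11 and Ski exceeded Smad3 in 6 of 11. Tgfb1 exceeded Skil, and Tgfbr2 exceeded Smad2, in 11 of 11.

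In GENCODE M21 coordinates of GRCm38, Tgfb1 lies on chr7:25687002-25705077, Tgfbr1 on chr4:47353222-47414931, Tgfbr2 on chr9:116084293-116175360, Smad2 on chr18:76241580-76310963, Smad4 on chr18:73639009-73703780, Smad7 on chr18:75367529-75395935, Smad3 on chr9:63646767-63757994, Ski on chr4:155154075-155222592, Skil on chr3:31095058-31122577 and Tgif1 on chr17:70844205-70853546. At most 0.77% of the stretches of 50 bases in the transcripts of any component, that of Tgfbr2, also occurred in those of another gene.

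The spread between libraries of a group differed widely among the components. The biological coefficient of variation, edgeR's estimate of the spread within groups beyond counting error, is drawn toward the trend over all genes. For Tgfb1 it was 26.7%, higher than in 99.1% of tested genes, while the median of all tested genes was 12%. The value was 16.5% for Smad2, 15.1% for Tgfbr2, 12.3% for Skil, 11.5% for Smad7 and 8.06% for Tgif1, which was in the lowest 4.43%. For Tgif1 and Smad2 the observed variation over all libraries, 5.64% and 22.4%, was no larger than the 9.12% and 23.8% that counting error gives. Their values of 8.06% and 16.5% are therefore estimates drawn toward the trend, not an observed excess over counting error. Observed variation over all libraries was 40.3% for Tgfb1, where counting error gives 10.8%.

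**Figure D3:**
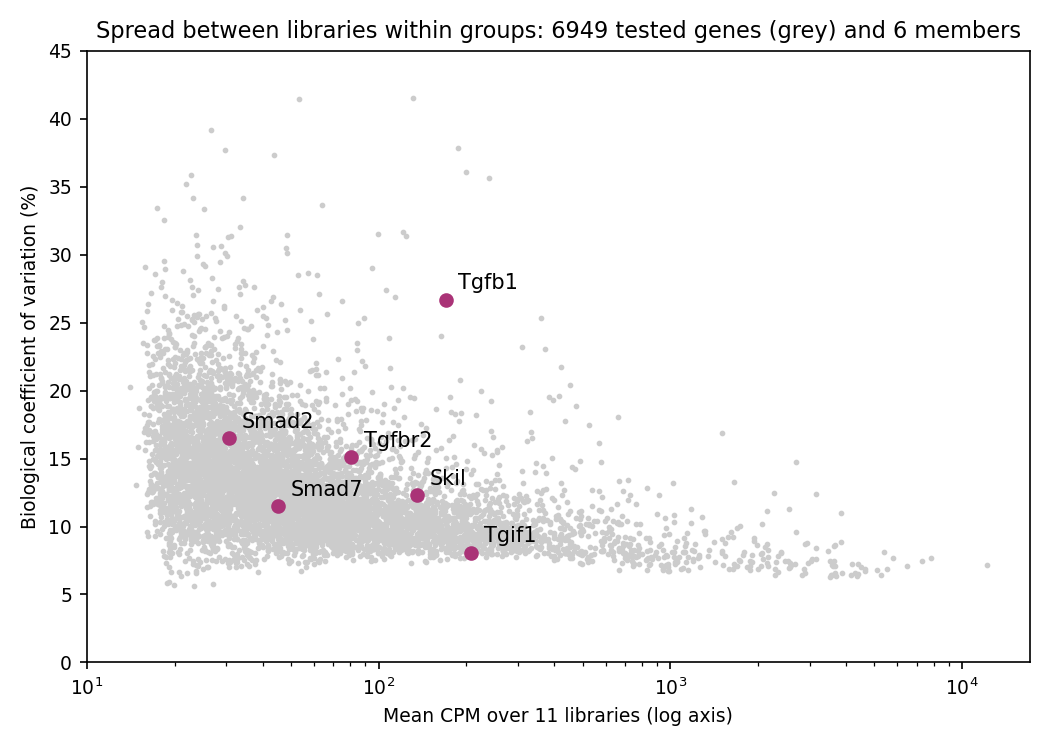
The biological coefficient of variation within groups (vertical axis, %) is plotted against mean CPM over the 11 libraries (log axis) for all 6949 tested genes (grey) and the 6 tested components (purple). Tgfb1 at 26.7% stands above nearly all genes of its level, and Tgif1 at 8.06% lies at the lower edge.

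Tgfb1 and Tgfbr2 ran in opposite directions across libraries. Over the 11 libraries, Pearson's r of their log2 CPM was -0.599 and Spearman's rho -0.755, and r was -0.708 without the 2 libraries farthest from the median of Tgfb1. It was -0.792 within the untreated group, -0.598 within the anti-LAG-3 group and -0.592 within primer barcode 9. The 4 libraries under 110 CPM of Tgfb1 had 91.3 to 107 CPM of Tgfbr2, and replicates 6 and 11, with 214 and 209 CPM of Tgfb1, had the lowest. These values share library preparation and depth, and they are given as a description of 1 of 15 pairs, whose median r was -0.0111. Skil and Tgif1 had the highest r, 0.779 (rho 0.745), with 0.878 in untreated libraries, 0.847 in anti-LAG-3 libraries, 0.754 within primer barcode 9 and 0.374 without the 2 libraries farthest from the median. Tgfb1 and Smad2 had an r of -0.503 and a rho of -0.255, with -0.81 in untreated libraries, -0.167 in anti-LAG-3 libraries, -0.857 within primer barcode 9 and -0.212 without the 2 farthest libraries.

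**Figure D4:**
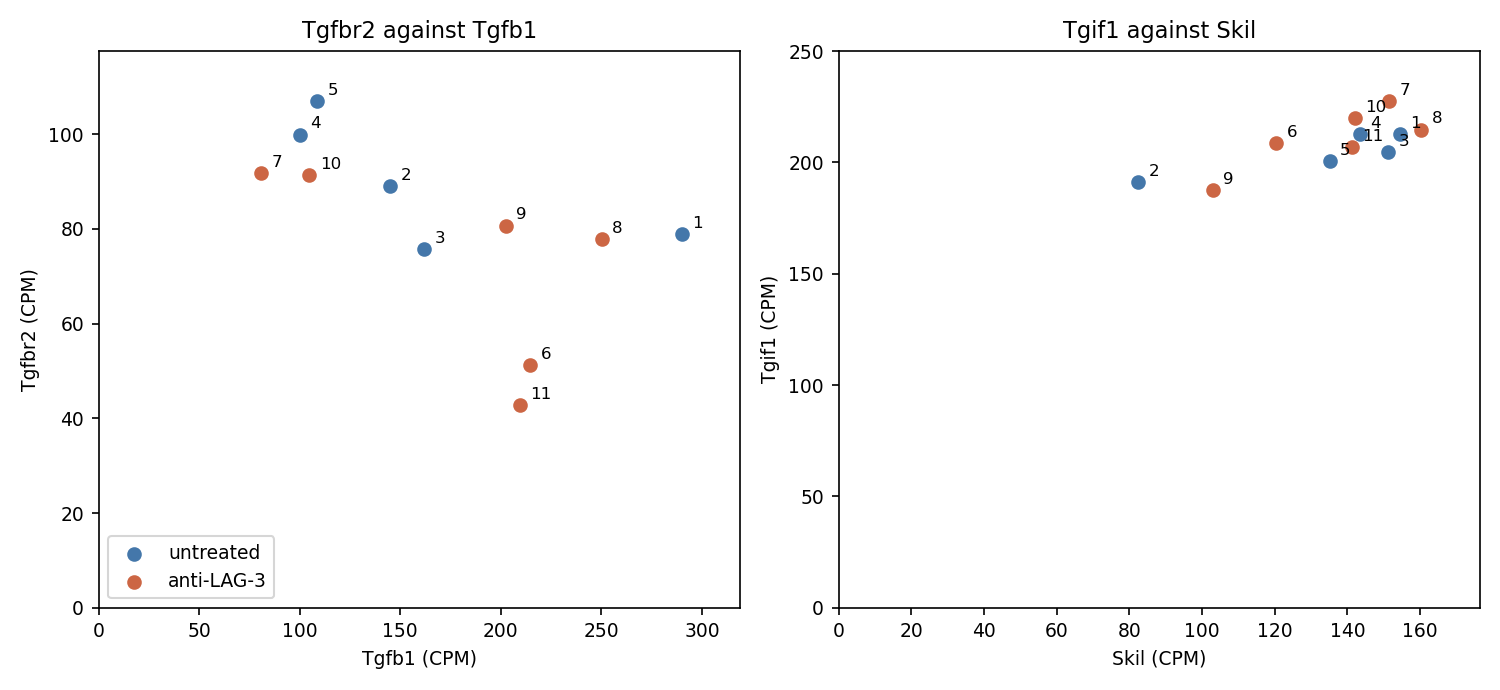
The left panel plots Tgfbr2 against Tgfb1 and the right panel Tgif1 against Skil, all in CPM on axes from 0, with a numbered point for each untreated (blue) and anti-LAG-3 (orange) library. On the left the libraries with the most Tgfbr2, such as untreated replicate 5 at 107 CPM, have little Tgfb1; on the right untreated replicate 2 and anti-LAG-3 replicate 9 are lowest in Skil.

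Of the other 6948 tested genes, those whose log2 CPM followed Tgfb1 most closely over the 11 libraries were 6530402F18Rik (r 0.91), Rab5a (r 0.887), a GTPase of early endosomes, and Ybx1 (r 0.884), an RNA- and DNA-binding protein that ranged from 143.9 to 561 CPM. Ybx1 shares 15.4% of its stretches of 50 bases with pseudogenes and other genes, so its count is uncertain. Tgfbr2 was followed most closely by Grina (r 0.899), Donson (r 0.892), a DNA replication factor, and Tollip (r 0.887), an adaptor of Toll-like receptor signaling. Without the 2 libraries farthest from the median, r was 0.251 for Grina, 0.464 for Tollip and 0.862 for Donson. Within the untreated group r was -0.047 for Grina, 0.473 for Tollip and 0.874 for Donson, and within the anti-LAG-3 group it was 0.98, 0.932 and 0.924. These genes were picked as the highest of all genes ranked, so their r is a description.

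The other genes of the pathway were taken from 8 lists with 101 genes, of which 99 had a row and 51 passed the filter. Of these, 30 were fitted higher and 21 lower with anti-LAG-3, 0 had an adjusted p under 0.05 and 3 an unadjusted p under 0.05, beside 3.73% of all tested genes. Among ligands and the proteins that store or activate them, 3 of 13 were tested and 0 had an unadjusted p under 0.05. Itgav, an integrin chain that releases TGF-β, had a log2 fold change of -0.081 ± 0.18 (SE), Nrros, which holds latent TGF-β on the cell surface, -0.16 ± 0.30, and the protease Furin 0.070 ± 0.23. The other TGF-β ligands were nearly absent, with 0 counts of Tgfb2 and 2 counts of Tgfb3 in all libraries together. Of 12 other receptors of the family, 11 had a row and 0 could be tested. Smad5, a SMAD of the BMP branch, was the only other SMAD tested, at 0.22 ± 0.29.

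Of the 18 regulators of receptors and SMADs, 9 were tested, 4 fitted higher and 5 lower, and 0 had an unadjusted p under 0.05. Those with the smallest p were the SMAD phosphatase Ppm1a (log2 fold change -0.39 ± 0.29, SE), the deubiquitinase Usp11 (0.35 ± 0.28) and the ubiquitin ligase Rnf111 (-0.25 ± 0.21). Of the 16 partners and co-repressors of SMADs, 12 were tested, 5 fitted higher and 7 lower. The acetyltransferase Ep300 came nearest to the threshold, at -0.44 ± 0.24 with an unadjusted p of 0.0773 in the edgeR quasi-likelihood test; Sp1 was at -0.34 ± 0.23 and Tgif2 at -0.28 ± 0.25, and 67.5% of the stretches of 50 bases of Tgif2 are shared with other genes, so its count is uncertain. In the branch that does not use SMADs, 7 of 10 genes were tested, 6 fitted higher and 1 lower, with the kinases Mapk14 at 0.29 ± 0.21 and Mapk8 at 0.19 ± 0.23 and the adaptor Tab2 at 0.19 ± 0.21.

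Of 16 genes that TGF-β is known to raise in T cells, 9 were tested, 7 fitted higher and 2 lower. Pdcd1, which encodes PD-1, was at 716 ± 71.8 CPM in untreated and 604 ± 101 CPM in anti-LAG-3 libraries, a log2 fold change of -0.24 ± 0.097 (SE; edgeR quasi-likelihood test, unadjusted p = 0.0214, adjusted p = 0.999). PD-1 protein was also part of the sort gate. Ctla4, another inhibitory receptor, was at 0.12 ± 0.084 and Rgs16, a regulator of G protein signaling, at 0.14 ± 0.10. Of 12 genes that TGF-β is known to lower, 10 were tested, 6 fitted higher and 4 lower. Gzma, a granzyme, had 38.8 ± 18.3 CPM in untreated and 17.3 ± 10.2 CPM in anti-LAG-3 libraries, a log2 fold change of -1.13 ± 0.31 (SE; edgeR quasi-likelihood test, unadjusted p = 0.00104, adjusted p = 0.999). Myc, a driver of growth and metabolism, had 42.9 ± 11.0 and 60.8 ± 12.5 CPM, a log2 fold change of 0.51 ± 0.19 (SE; edgeR quasi-likelihood test, unadjusted p = 0.0137, adjusted p = 0.999), and without untreated replicate 3 it was 0.32. Tbx21, the transcription factor T-bet, was at 0.25 ± 0.16, and at 0.014 within primer barcode 9. Leaving out each library in turn gave 0.175 to 0.387 for Tbx21. The 2 genes of this list with an unadjusted p under 0.05 lay in opposite directions, and neither passed the adjusted test.

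The libraries had the markers of CD8 T cells, with a summed level of 7 marker genes of 5580 to 5970 CPM in untreated and 5620 to 6180 CPM in anti-LAG-3 libraries. Havcr2, which encodes the TIM-3 that the gate excluded, had 34 counts in all. Of 12 myeloid markers 10 had a read and S100a8 and S100a9 were at 0, with summed levels of 29.7 to 61.9 CPM and 26.1 to 162 CPM, and their r with Tgfb1 over the 11 libraries was -0.332. The 8 fibroblast and tumor cell markers summed to 2.56 to 23.1 CPM and 0 to 20.2 CPM, with an r of 0.476. The 4 markers of CD4 and regulatory T cells summed to 170 to 254 CPM and 161 to 244 CPM, nearly all Ikzf2 and Il2ra. Cd4 had 4 counts and Foxp3 had 2 counts in all libraries together. The 4 NK cell markers summed to 242 to 328 CPM and 213 to 345 CPM, mostly Klre1, and the 6 endothelial and platelet markers, with Ppbp at 0, to 143 to 212 CPM and 157 to 254 CPM, mostly Pecam1. For the other lists named here, r with Tgfb1 was -0.331 for CD8 T cells and -0.253 for CD4 and regulatory T cells. It was 0.388 for NK cells and -0.307 for endothelium and platelets. The part of other cells in the level of Tgfb1 was not tested.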

How the data were processed

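Read counts per gene symbol were deposited for 11 libraries of T cells from LLC tumors, 5 untreated and 6 anti-LAG-3. Per the labels and the study's methods, poly(A) RNA was captured on oligo-dT beads and amplified, reads were trimmed with cutadapt (4.1 in the submitters' processing notes), and the authors mapped them with Bowtie2 (2.4.5) to GRCm38 reference RNA and counted reads per gene. Both versions are those of the submitters' notes, and the study's methods name other versions of both tools. How multi-mapping reads and strand were treated is not given in the sources used here. The labels and the methods differ on the day of the second excision. Groups were taken from the treatment label and replicate numbers from the library names, and 0 sample columns of the table were left unmatched.

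Genes were kept by edgeR's filterByExpr (4.0.16, R 4.3.3), here 17.7 CPM in at least 5 libraries and at least 15 counts in all, which left 6949 of 32469 symbols (21.4%). Counts were normalized by TMM, and the groups were compared by the quasi-likelihood test with no covariate and Benjamini-Hochberg adjustment over all tested genes at 0.05. CPM used effective library sizes, and correlations used log2 CPM with a prior count of 2. The code was tested on simulated data. Alternatives were edgeR's likelihood ratio test, DESeq2 (1.42.0), other scalings and filters, robust estimation, primer barcode as a covariate or barcode 9 alone, and each library left out in turn. Depths of 313524 to 1901374 counts limited precision for genes of low count. Exon lengths came from GENCODE M21, which held 96.3% of the symbols, and promoter windows from RefSeq on GRCm38.p6.

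The components, pathway lists and marker lists were chosen with earlier results of these data known. The results of 2 marker lists are not reported here. Named were all 10 components, the 3 genes of each pathway list with the smallest unadjusted p and any called, and the 3 genes with the highest Pearson r to Tgfb1 and to Tgfbr2. The motif set was widened after a first set matched neither promoter window.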

Additional observations from a re-analysis of the deposited data

Results flagged for a closer look

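Each tested component was examined in each group for a library that stands apart from the rest, 12 sets in all, of which about 0.6 would be marked by chance. In 2 sets the gap of the lowest library to its nearest neighbour was larger than Dixon's 95% limit allows. Smad2 was at 15.6 CPM in untreated replicate 1, from 19 counts with a counting interval of 9.39 to 24.4 CPM, while the other untreated libraries had 30.7 to 39.6 CPM. Skil was at 82.4 CPM in untreated replicate 2, from 25 counts with a counting interval of 53.3 to 122 CPM, while the others had 135 to 154 CPM. That library was the only one with primer barcode 10, so library and barcode cannot be told apart.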

How the results depend on the processing

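No component passed an adjusted p of 0.05 under any alternative, and the smallest adjusted p was 0.722. Over all genes, 3 were called with no filter on low counts (Ccl1, Plac8 and 5830405F06Rik) and 0 to 2 when each library was left out in turn (C2cd4b and Plac8 without anti-LAG-3 replicate 7); these 4 genes fall outside the rule for named genes. The log2 fold change of Tgfb1 turned to -0.0214 with primer barcode as a covariate and -0.285 within primer barcode 9, and ran from -0.104 to 0.395 when each library was left out, below 0 in 8 of 11 cases. Leaving out each library gave -0.176 to 0.153 for Smad2 and -0.128 to 0.0388 for Skil, which was at -0.152 with primer barcode as a covariate and -0.22 within primer barcode 9. Tgfbr2, Smad7 and Tgif1 kept their direction under every alternative that was run, with ranges of -0.39 to -0.145, 0.139 to 0.386 and 0.000513 to 0.0721, so that Tgif1 came to about 0 (without anti-LAG-3 replicate 7); the lowest unadjusted p of Tgfbr2 was 0.0375, without anti-LAG-3 replicate 7. The same alternatives were added for the named pathway genes after the data were seen. With primer barcode as a covariate Itgav turned to 0.024 and Smad5 was at 0.00896, and within primer barcode 9 Itgav was at 0.0801, Smad5 at -0.0456, Mapk8 at -0.0275, Tbx21 at 0.0143 and Tgif2 at -0.0776; leaving out each library gave -0.524 to -0.0893 for Tgif2, -0.535 to -0.259 for Sp1, 0.175 to 0.504 for Usp11, -0.341 to -0.13 for Rnf111, -0.31 to -0.0433 for Nrros, 0.0973 to 0.402 for Smad5, 0.0905 to 0.307 for Mapk8, 0.102 to 0.252 for Tab2, 0.076 to 0.144 for Ctla4 and 0.0871 to 0.195 for Rgs16. Without anti-LAG-3 replicate 7, Sp1 was at -0.535, Tgif2 at -0.524 and Rnf111 at -0.13, without untreated replicate 2 Rnf111 was at -0.137, without untreated replicate 3 Usp11 was at 0.175, and without untreated replicate 1 Tgif2 was at -0.0893. Leaving out each library gave -0.207 to 0.0451 for Itgav and -0.000698 to 0.189 for Furin. Nrros, Usp11 and Ppm1a fell under the filter without some libraries. Pdcd1 ran from -0.345 to -0.178. In the quasi-likelihood test its unadjusted p was 0.0731 with primer barcode as a covariate and 0.0575 within primer barcode 9. Without anti-LAG-3 replicate 7 it was 0.000429 (adjusted p = 0.387). Gzma ran from -1.52 to -0.904, with a smallest adjusted p of 0.0559, and Myc from 0.322 to 0.658. Ep300 ran from -0.547 to -0.322, with a smallest adjusted p of 0.722. Its unadjusted p was 0.0406 in edgeR's likelihood ratio test. In the quasi-likelihood test it was 0.0441 with primer barcode as a covariate and 0.0322 without anti-LAG-3 replicate 11. No paired analysis was possible because the groups share no replicate number; the second index of the titles, with both groups in only 1 index, was not used as a block. The cause of these shifts was not tested, and the depth leaves the 4 components of low count undecided.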
